A study of Mus musculus with 4 samples.

Results

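The genes of the Tal1 and Lmo2 transcription factor complex were read in Flk-1 positive cells that were sorted by a reporter of Etv2. The 8 genes are Tal1, Lyl1, Lmo2, Ldb1, Ldb2, Cbfa2t3, Tcf3 and Tcf12. They were taken as the genes whose symbol stood alone in the platform annotation of a probe set, which gave 19 probe sets of 34945 with 1 symbol and 8 genes of 18193. Each gene was represented by its probe set with the highest mean over the arrays, and the others are shown beside it. The study compared an Etv2-Venus positive with an Etv2-Venus negative population, with 2 arrays of each, numbered 1 and 2. All cells derived from TT2 mouse embryonic stem cells, heterozygous for Venus knocked into Etv2, differentiated on OP9 stromal cells to day 5 by the sample labels, and sorted as Flk-1 positive. Both populations therefore carry 1 reporter allele, come from 1 cell line and shared their culture with OP9 cells, and no wild-type cells are among the arrays analysed here. Flk-1 is the VEGF receptor encoded by Kdr, and Etv2 is an ETS family factor of blood and endothelial precursors.

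The complex works as a bridge. Tal1 and its close relative Lyl1 are basic helix-loop-helix proteins that bind E-box DNA as partners of widely expressed E proteins, among them those encoded by Tcf3 and Tcf12. Lmo2 has no DNA-binding activity of its own and joins these pairs to GATA factors and to Ldb1, which pairs with itself and can loop distant DNA elements together, and Ldb2 is the paralogue of Ldb1. Cbfa2t3, known as Eto2, is a corepressor found with the complex in blood cells. In the mouse embryo Tal1 and Lmo2 are both required for the first blood cells, and Tal1 also restrains heart genes in vessel-forming cells.

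In these cells the members formed sets of 4. Tal1, Lyl1, Lmo2 and Cbfa2t3 measured 0.88 to 1.02 log2 units higher in Etv2-Venus positive than in negative cells, which is 1.84-fold to 2.03-fold, while Ldb1, Ldb2, Tcf3 and Tcf12 lay between -0.10 and 0.12. None of the 8 passed an adjusted p of 0.05 over all genes in the limma fit, in which 0% of the 18193 genes passed. At an unadjusted limma p under 0.05 there were 4 members higher and 0 lower, against 7.07% of all genes higher and 4.64% lower. For these 4 members both positive arrays lay above both negative arrays, as they did for 22.4% of all genes. The members had a median difference of 0.50, beside 0.01 over all genes. When the fit let the variance follow the mean and was made robust to outlying genes, limma called 2 members higher, Tal1 and Lmo2, against 0.445% of all genes.

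The array values are log2 expression from the authors' RMA (background correction, normalization between arrays and summary of each probe set), and differences are Etv2-Venus positive minus negative with the standard error (SE) of the limma fit. Only 4 arrays stand behind each value. The array medians over all probe sets were 5.462 and 5.486 log2 units in positive and 5.503 and 5.523 in negative cells. Since no label names separate cultures, p-values reflect only how far these 4 arrays scatter, and that scatter may be technical. Etv2 itself was read as a check of the labels, at 12.64 and 12.41 on the positive arrays and 12.03 and 11.87 on the negative arrays. Both positive arrays lay above both negative arrays, and the gap of 0.57 (SE 0.13) did not pass (limma adjusted p = 0.185). Kdr, on which all cells were selected, measured 12.73 ± 0.12 in positive and 12.60 ± 0.12 in negative cells (SD, n = 2 each). For Tfrc, read at both ends of its transcript as a control of RNA quality, the 3' signal exceeded the 5' signal by 1.91 and 1.21 log2 units on the positive arrays and 1.46 and 0.85 on the negative arrays. For Pcx, read in the same way, it was 0.92 and 0.58 on the positive arrays and 1.06 and 0.85 on the negative arrays. Both were higher on the array numbered 1 in each population. Within each array number the Tfrc value was higher and the Pcx value lower in positive cells, and the arrays of the populations overlapped for both.

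Promoter sequence is shown for 3 of the members that measured higher together and, for comparison, for 1 that did not, because Etv2 is an ETS factor and the complex acts with GATA factors. RefSeq promoter entries on GRCm38.p6 matched 6 of the 8 members with 12 start sites, and Lmo2 and Ldb2 had none. Each sequence is the 250 bases before the start furthest upstream, 5' to 3' on the strand of the gene. Capitals mark the ETS-type letters CCGGAA, the ETS-type letters AGGAAG and the GATA-type letters AGATAA, searched on both strands, so that their reverse complements are marked too. Overlapping matches were each counted.
Tal1, chr4:115056176-115056425, plus strand: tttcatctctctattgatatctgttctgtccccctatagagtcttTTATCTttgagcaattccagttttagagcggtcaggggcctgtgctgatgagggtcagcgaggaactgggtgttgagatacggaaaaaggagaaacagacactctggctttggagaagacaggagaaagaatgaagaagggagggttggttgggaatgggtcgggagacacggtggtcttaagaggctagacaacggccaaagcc
Lyl1, chr8:84701207-84701456, plus strand: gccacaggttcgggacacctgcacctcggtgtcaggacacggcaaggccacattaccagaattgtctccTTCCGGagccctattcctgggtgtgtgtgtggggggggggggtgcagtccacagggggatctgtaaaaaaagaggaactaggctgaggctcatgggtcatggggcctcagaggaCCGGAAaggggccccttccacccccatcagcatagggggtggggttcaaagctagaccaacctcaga
Cbfa2t3, chr8:122699110-122699359, minus strand: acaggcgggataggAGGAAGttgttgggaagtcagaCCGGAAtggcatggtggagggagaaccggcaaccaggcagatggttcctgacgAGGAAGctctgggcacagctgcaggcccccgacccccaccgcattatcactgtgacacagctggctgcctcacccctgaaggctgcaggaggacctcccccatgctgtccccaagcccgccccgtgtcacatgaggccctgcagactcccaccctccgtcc
Tcf3, chr10:80433636-80433885, minus strand: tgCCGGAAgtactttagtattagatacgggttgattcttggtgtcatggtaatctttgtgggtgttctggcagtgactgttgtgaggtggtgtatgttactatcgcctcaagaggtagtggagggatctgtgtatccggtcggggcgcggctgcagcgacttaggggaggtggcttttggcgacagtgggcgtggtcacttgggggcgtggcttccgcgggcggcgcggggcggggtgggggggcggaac

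The Lyl1 window held 2 matches to CCGGAA, and the Cbfa2t3 window held 1 of these and 2 of AGGAAG. The Tal1 window held 1 match to AGATAA and 0 to either ETS-type motif. The window of Tcf3, whose level differed little, also held 1 match to CCGGAA. The second windows of Tal1 and Cbfa2t3, which are not shown, held 0 matches to the marked letters. Ldb1 and Tcf12 also differed little, and their windows are not shown. For each of them 1 window held 1 match to AGGAAG, and another window of Ldb1 held 2 to AGATAA. Their remaining windows held 0. Over the 32851 promoter windows of the same length, 12% held CCGGAA, 29.5% held AGGAAG, 38.2% held at least 1 of these and 9.99% held AGATAA. The E-box letters CANNTG were in 66.2% of windows and were therefore not marked. The matches describe letters in these windows and were not tested against the expression values.

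Tal1, the haematopoietic basic helix-loop-helix factor, was read on 1 probe set, at 12.30 and 12.05 log2 units on the Etv2-Venus positive arrays and 11.25 and 11.06 on the negative arrays. Both positive arrays stood above both negative arrays. The difference was 1.02 (SE 0.13, 2.03-fold), with a limma adjusted p of 0.0896. Within the arrays numbered 1 it was 1.05 and within those numbered 2 it was 0.99. Of all 18193 genes, 93 had a larger difference in the higher direction, which is 0.511%. In the fit with a variance trend the limma adjusted p for Tal1 was 0.0476.

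Lyl1, which can stand in for Tal1 in adult blood stem cells, was read on 1 probe set too, at 7.68 and 7.84 log2 units on the positive arrays and 6.84 and 6.90 on the negative arrays. The arrays did not overlap, and the difference was 0.89 (SE 0.10, 1.85-fold; limma adjusted p = 0.0802). The differences within the array numbers were 0.84 and 0.93. Between the relatives Tal1 and Lyl1 the difference in log2 change was 0.13, and the arrays overlapped in that measure.

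Lmo2, the LIM-only bridging protein, was read on 1 probe set, at 12.63 and 12.63 log2 units on the positive arrays and 11.71 and 11.59 on the negative arrays. The positive arrays were nearly equal to each other and stood above both negative arrays. The difference was 0.98 (SE 0.09, 1.97-fold), with a limma adjusted p of 0.0670, which was the smallest of the 8 members. Lmo2 passed when testing was limited to the 10179 genes averaging 6 log2 units or more (limma adjusted p = 0.0429), a setting in which 0.648% of genes were called higher. It also passed in the fit with a variance trend (limma adjusted p = 0.0390).

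Cbfa2t3, the corepressor, measured 8.62 and 8.82 log2 units on the positive arrays and 7.65 and 8.03 on the negative arrays of its brightest probe set. The arrays did not overlap, although the negative arrays lay further apart than the positive ones. The difference was 0.88 (SE 0.16, 1.84-fold; limma adjusted p = 0.144). It was the member with the most probe sets in the higher direction. All 4 of its probe sets had both positive arrays above both negative arrays, with differences from 0.69 to 0.88. These probe sets read 1 gene on the same arrays and are not replicates of the comparison.

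**Figure D1:**
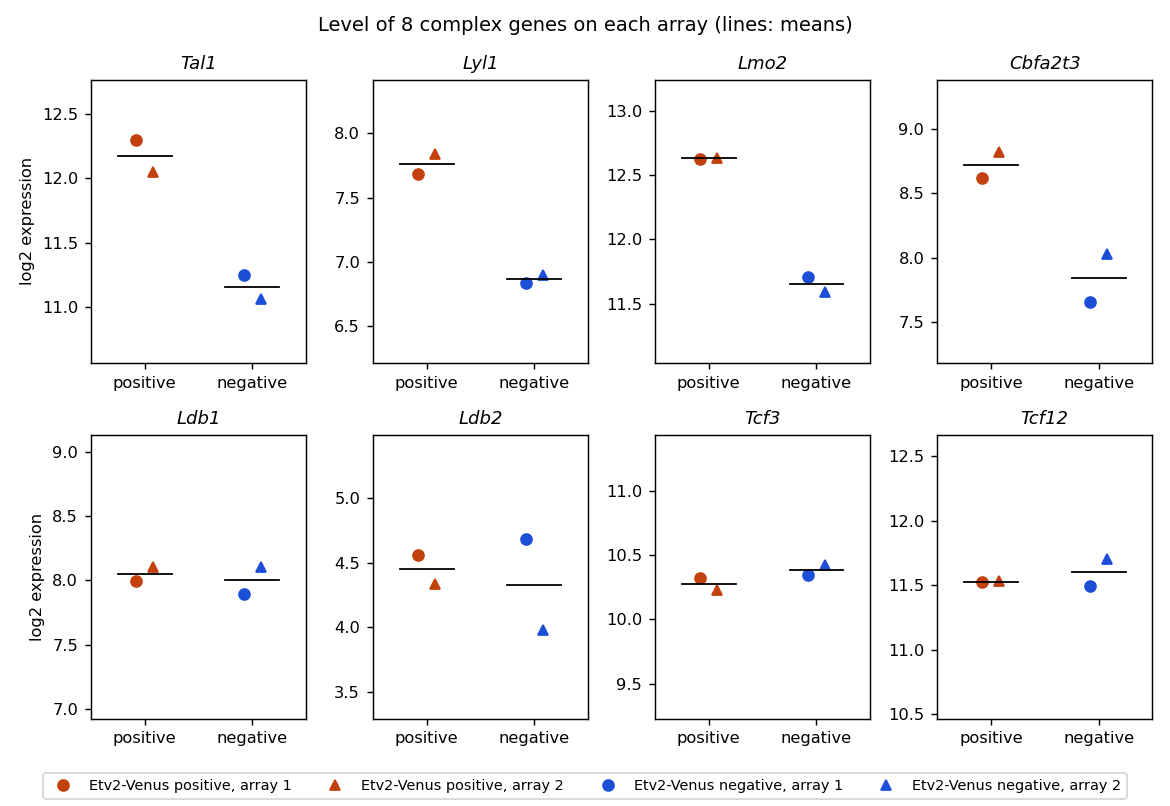
Log2 expression of the 8 complex genes on each array, 1 panel per gene, with the 2 Etv2-Venus positive arrays left of the 2 negative arrays and lines at the means; every panel spans the same number of log2 units. The positive arrays lie above the negative arrays for Tal1, Lyl1, Lmo2 and Cbfa2t3, and the means of the other 4 genes differ by 0.12 or less.

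Ldb1, the self-associating partner that holds the complex together, measured 7.999 and 8.108 log2 units on the positive arrays and 7.90 and 8.10 on the negative arrays. The arrays overlapped and the difference was 0.05 (SE 0.11; limma adjusted p = 0.932). Its 95% interval ran from -0.25 to 0.35, or 0.842-fold to 1.28-fold. The interval leaves out the 1.97-fold difference measured for Lmo2. Ldb2 measured 4.56 and 4.34 log2 units on the positive arrays and 4.68 and 3.98 on the negative arrays, below the array medians. Its difference of 0.12 (SE 0.26) had an interval from -0.56 to 0.79, and its other 2 probe sets, with means of 3.38 and 2.73, differed by -0.03 and -0.01. The upper end of the interval is 1.73-fold, close to the 1.85-fold of Lyl1.

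Tcf3, which encodes the E proteins E12 and E47, measured 10.33 and 10.23 log2 units on the positive arrays and 10.35 and 10.42 on the negative arrays. Both positive arrays lay below both negative arrays, but the difference of -0.10 (SE 0.09) was small and did not pass (limma adjusted p = 0.781). In the lower direction 17% of all genes had arrays that did not overlap. The second Tcf3 probe set differed by -0.11, and the third, whose probes may cross-hybridise, by 0.00. Tcf12, which encodes the E protein HEB, measured 11.52 and 11.53 log2 units on the positive arrays and 11.50 and 11.70 on the negative arrays. The negative arrays enclosed the positive ones, and the difference was -0.07 (SE 0.11; limma adjusted p = 0.889), with an interval of 0.780-fold to 1.16-fold.

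The probe sets of Tcf12 did not share a direction. Their 5 differences ran from -0.41 to 0.20. The probe set at -0.41 measured 6.82 and 7.70 on the positive arrays and 7.61 and 7.73 on the negative arrays, so that positive array 1 alone stood low. The probe set at 0.20 had both positive arrays above both negative arrays, at 7.22 and 7.15 in positive and 7.10 and 6.87 in negative cells. Neither passed when all probe sets were tested (limma adjusted p = 0.794 and 0.731). The sources used here do not place these probe sets on the transcripts of Tcf12.

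**Figure D2:**
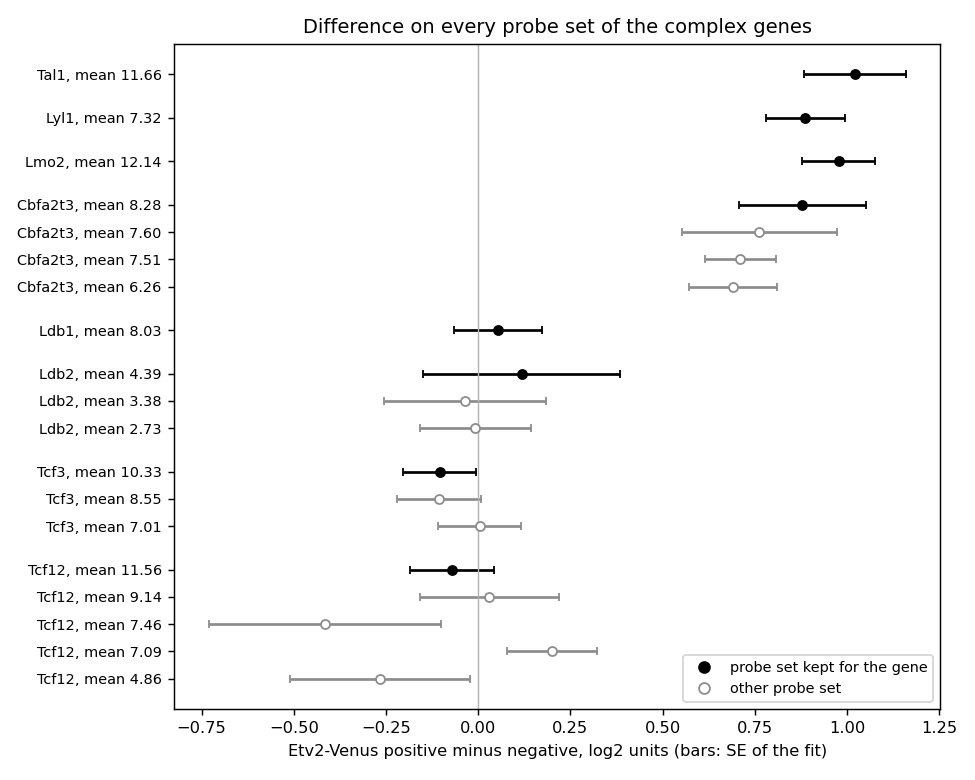
Difference between Etv2-Venus positive and negative cells in log2 units for each of the 19 probe sets, with bars for the SE of the fit over all probe sets, grouped by gene and labelled with the mean over 4 arrays. Filled points are the probe sets kept for the genes; the 4 Cbfa2t3 probe sets lie between 0.69 and 0.88, while those of Tcf12 fall on both sides of 0.

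Whether members changed unequally was asked within arrays, for 5 pairs, with the difference between the genes of a pair on each array given relative to its mean in negative cells. For Lmo2 minus Ldb1 it was 0.98 and 0.87 log2 units on the positive arrays and 0.16 and -0.16 on the negative arrays. For Tal1 minus Tcf3 it was 1.20 and 1.05 on the positive arrays and 0.13 and -0.13 on the negative arrays. In both pairs the positive arrays stood above the negative arrays, and the measure was higher in positive cells by 0.92 and 1.13 log2 units. The exact permutation test over the 4 arrays, two-sided, gave p = 0.333 for each (0.833 after adjustment over the 5 pairs), and 0.333 is the smallest p that 2 arrays against 2 can give. For Tal1 minus Lyl1, Ldb2 minus Ldb1 and Tcf12 minus Tcf3 the arrays overlapped, and the changes were 0.13, 0.07 and 0.03.

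**Figure D3:**
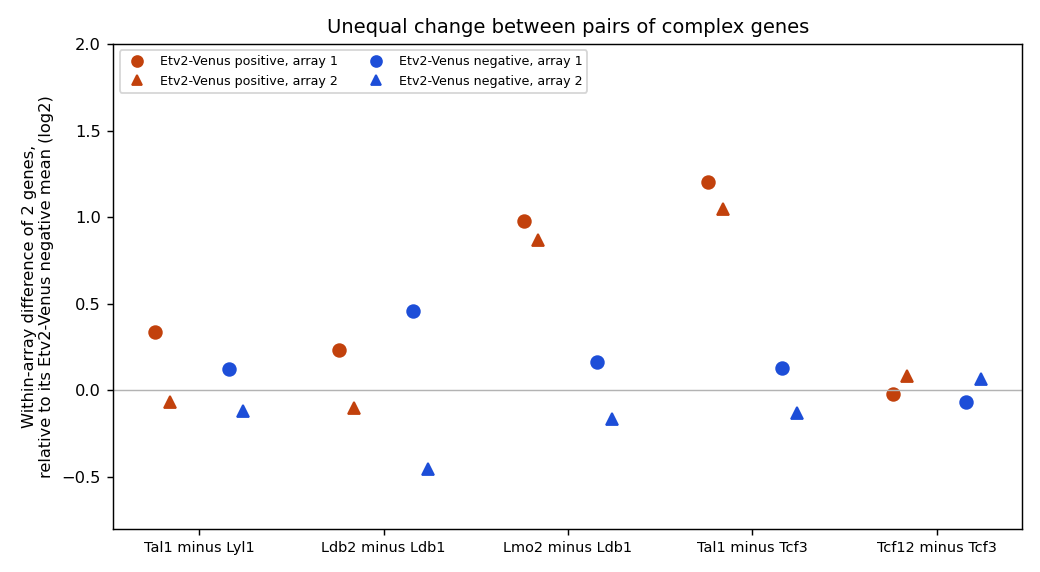
Within-array log2 difference between 2 complex genes, relative to its mean over the Etv2-Venus negative arrays, for 5 pairs on the 4 arrays (positive left of negative in each pair; circles array 1, triangles array 2). Lmo2 minus Ldb1 and Tal1 minus Tcf3 are higher on both positive arrays, by 0.92 and 1.13 on average, and the other 3 pairs overlap.

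Further proteins that join the complex, or are paralogues of its members, did not move as a group. Of 15 such genes 0 passed over all genes in either direction with limma, and at an unadjusted p under 0.05 there were 1 higher, Gata2, and 1 lower, Gata3, shares close to the 7.07% and 4.64% of all genes. Gata2, the GATA factor of early blood progenitors, measured 9.90 and 10.05 log2 units in positive and 9.08 and 9.35 in negative cells, a difference of 0.76 (SE 0.13; limma adjusted p = 0.131). Both positive arrays stood above both negative arrays. Gata3, a GATA factor known best from T cells, measured 6.50 ± 0.18 in positive and 6.98 ± 0.13 in negative cells (SD, n = 2 each), a difference of -0.48 (SE 0.13). Tal2, the third member of the Tal1 family, was dim, at 4.96 ± 0.30 in positive and 4.54 ± 0.13 in negative cells (SD, n = 2 each).

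Lmo1, the closest paralogue of Lmo2, pointed the other way. It measured 6.88 and 6.28 log2 units on the positive arrays and 8.90 and 7.04 on the negative arrays, a difference of -1.39 (SE 0.64; limma adjusted p = 0.513). Both positive arrays were below both negative arrays, but negative array 1 stood far above negative array 2. Leaving out each array in turn gave differences between -2.32 and -0.46, with -0.46 without negative array 1. The remaining partners, the single-stranded DNA-binding proteins Ssbp2, Ssbp3 and Ssbp4 that stabilise Ldb1 and the E protein gene Tcf4, had differences of 0.00, -0.04, 0.16 and 0.09, and were chosen for mention after their values were seen. The list of 15 had a median of -0.04. Its arrays did not overlap for 4 genes in the higher and 4 in the lower direction, against 22.4% and 17% of all genes.

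The Id proteins bind E proteins and keep them from DNA. Of the 4 Id genes 0 passed over all genes and 2 were higher at an unadjusted limma p under 0.05, as were 7.07% of all genes. Id4 measured 10.98 and 10.78 log2 units in positive and 10.36 and 10.44 in negative cells, and Id2 measured 10.95 and 10.93 in positive and 10.51 and 10.69 in negative cells. For both genes, as for 22.4% of all genes, the positive arrays stood above the negative arrays, with differences of 0.48 (SE 0.11) and 0.34 (SE 0.10) and limma adjusted p-values of 0.204 and 0.320. Id1 and Id3 each differed by 0.04, and their arrays overlapped.

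Corepressors and chromatin partners had a median difference of 0.00. The arrays did not overlap for 6 of 12 measured genes in the higher direction and 2 in the lower. The shares over all genes were 22.4% and 17%. Of the 12 genes 0 passed, and 1 was higher at an unadjusted limma p under 0.05, a share near the 7.07% of all genes. That gene was Gfi1, a repressor of emerging blood cells, at 6.95 and 6.58 log2 units in positive and 5.99 and 5.81 in negative cells, a difference of 0.86 (SE 0.16; limma adjusted p = 0.141). Its relative Gfi1b measured 6.44 ± 0.36 in positive and 6.11 ± 0.02 in negative cells (SD, n = 2 each). Kdm1a, the histone demethylase recruited by both, differed by -0.19 (SE 0.09). Its cofactor Rcor1 differed by 0.22 (SE 0.13), with 1 of its 3 probe sets in the opposite direction, by 0.11 with the mean over these probe sets and by 0.074 without negative array 2.

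Genes of the vessel and blood programs that Tal1 acts in, listed as its targets, leaned towards the positive cells. Of 25 measured genes 0 passed over all genes with limma, and the median difference was 0.66. At an unadjusted limma p under 0.05 there were 14 higher and 0 lower, against 7.07% and 4.64% of all genes. The arrays did not overlap for 17 in the higher and 2 in the lower direction, against 22.4% and 17% of all genes. The ETS factor Fli1 measured 10.61 and 10.68 log2 units in positive and 9.27 and 9.14 in negative cells. This was a difference of 1.44 (SE 0.10; limma adjusted p = 0.0670). Erg, the homeobox gene Hhex and the junction protein gene Esam were higher by 1.27, 1.07 and 1.07, with the same adjusted p. The 2 probe sets of Erg differed by 0.50 and 1.27, and with their mean the difference was 0.88 (limma adjusted p = 0.0725). The 2 probe sets of Fli1 differed by 1.30 and 1.44, and with their mean the difference was 1.37 (limma adjusted p = 0.169). In the fit with a variance trend 6 of the 25 passed as higher, against 0.445% of all genes, and these included Fli1, Erg, Hhex and Esam.

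Of the 8 erythroid markers measured, 5 are also listed as targets. At an unadjusted limma p under 0.05 there were 0 higher and 0 lower, against 7.07% and 4.64% of all genes. Arrays that did not overlap were found for 1 in the higher direction, Hba-x, and 2 in the lower, Hbb-bh1 and Klf1. The shares over all genes were 22.4% and 17%. The globin genes Hba-x and Hbb-bh1 of the embryo, which were chosen for mention after their values were seen, measured 5.64 ± 0.13 and 5.15 ± 0.11 in positive and 5.38 ± 0.00 and 5.56 ± 0.27 in negative cells (SD, n = 2 each). Runx1, the factor of blood cell emergence, measured 8.40 ± 0.52 in positive and 8.26 ± 0.39 in negative cells (SD, n = 2 each). Of the 25 targets, 3 also stand among the endothelial markers below, 2 among the partners, 2 among the corepressors and 1 among the cardiac genes. Gata2 and Gfi1, named as higher at an unadjusted limma p under 0.05 in the partner and corepressor lists, are thus counted again among the targets.

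Genes of the heart program leaned the opposite way. This program is known to be raised in mouse endothelium lacking Tal1. Whether Tal1 acts on these genes or on the listed targets in the cells studied here was not tested. Of 13 genes 0 passed over all genes with limma, and the median was -0.56. At an unadjusted limma p under 0.05 there were 0 higher and 8 lower, against 7.07% and 4.64% of all genes. The arrays did not overlap in the lower direction for these 8, against 17% of all genes. Hand2, a factor of heart and lateral plate mesoderm, measured 8.18 and 8.43 log2 units in positive and 9.14 and 9.38 in negative cells. This was a difference of -0.96 (SE 0.14; limma adjusted p = 0.107). The 3 probe sets of Hand2 ran from -0.96 to 0.14, only 1 of them had a mean of 5 or more, and with their mean the difference was -0.30 (limma adjusted p = 0.572). The sarcomeric actin gene Actc1 and the progenitor factor Isl1 differed by -1.33 (SE 0.24) and -0.88 (SE 0.17), and the atrial myosin light chain gene Myl7 by -0.57 (SE 0.11). Nkx2-5 and Tbx5, core cardiac factors chosen for mention after their values were seen, differed by 0.00 and 0.05. Of the 13 genes 9 had a difference below 0. The largest difference in the higher direction was that of Tnnt2, at 0.57 (SE 0.31), with arrays that overlapped. Mef2c differed by 0.19 (SE 0.82).

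**Figure D4:**
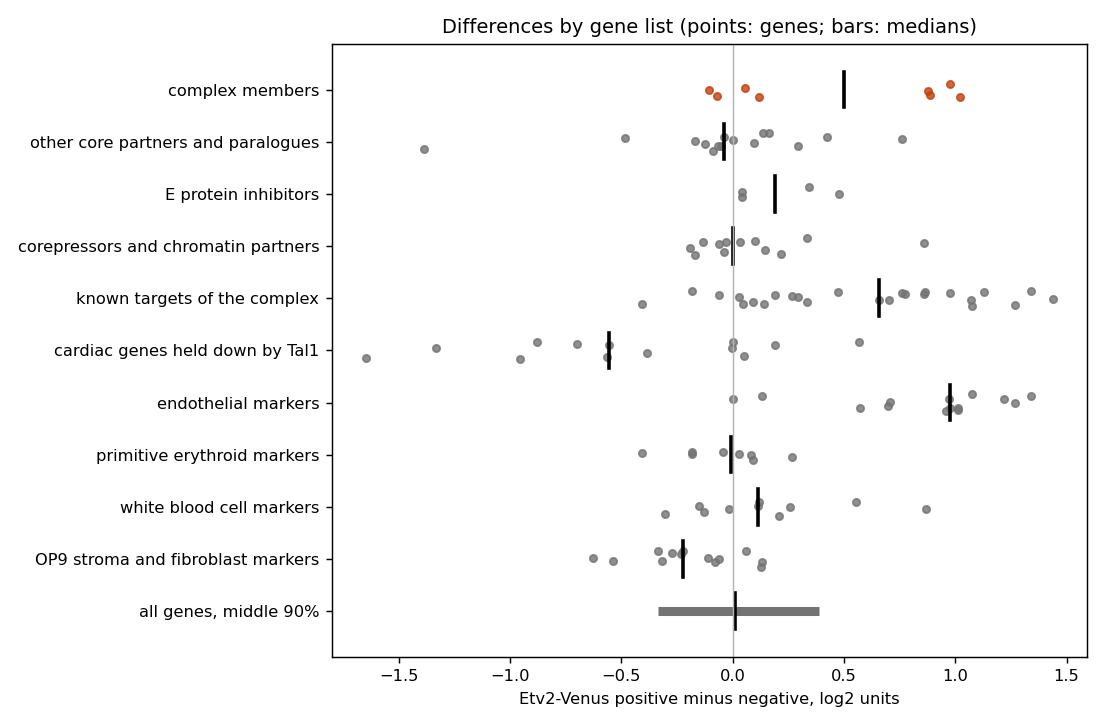
Differences between Etv2-Venus positive and negative cells in log2 units for the genes of each list (points) with list medians (bars), and the median and middle 90% of all 18193 genes in the bottom row. Of the complex genes 4 lie between 0.88 and 1.02 and 4 between -0.10 and 0.12, the targets have a median of 0.66 and the cardiac genes one of -0.56.

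Markers of other cell types were read beside these results. Of 14 endothelial markers 12 had both positive arrays above both negative arrays, against 22.4% of all genes, and their median difference was 0.97. Their summed signal, on the log2 scale, was 13.87 and 13.96 on the positive arrays and 13.29 and 13.43 on the negative arrays, so it moved in the same direction as Tal1, Lyl1, Lmo2 and Cbfa2t3. The sum includes Kdr, on which all cells were selected and which measured highest in the list. Kdr stood at 12.64 and 12.81 in positive and 12.51 and 12.68 in negative cells. The mean of the log2 values of the endothelial markers was 8.57 and 8.66 on the positive and 7.72 and 7.80 on the negative arrays. In sorted bulk cells a larger share of such cells and more RNA per cell cannot be told apart. The sialomucin gene Emcn of later endothelium was near the bottom of the scale, at 3.38 ± 0.17 in positive and 3.38 ± 0.17 in negative cells (SD, n = 2 each). Of the 8 erythroid markers measured 6 had a mean below 5.49, the average of the array medians, and their summed signal was 8.39 and 8.40 on the positive and 8.46 and 8.32 on the negative arrays. Of the 10 white blood cell markers 7 had a mean below 5.49, among them Ptprc, which encodes CD45, at 3.04 ± 0.10 in positive and 3.35 ± 0.06 in negative cells (SD, n = 2 each). The arrays did not overlap for 4 of the 10 in the higher direction, Lcp1, Itgb2, Spi1 and Coro1a, by 0.87, 0.56, 0.26 and 0.12, and for 1 in the lower direction, Ptprc. The shares over all genes were 22.4% and 17%. At an unadjusted limma p under 0.05 there were 3 higher and 1 lower, against 7.07% and 4.64% of all genes. The 5 genes named here were chosen for mention after their values were seen. The summed signal of that list was 8.95 and 8.74 on the positive and 8.63 and 8.52 on the negative arrays, so it too was higher on both positive arrays. Of the 13 markers of OP9 stroma and fibroblasts, 0 had arrays that did not overlap in the higher and 3 in the lower direction. The shares over all genes were 22.4% and 17%. At an unadjusted limma p under 0.05 there were 0 higher and 2 lower, against 7.07% and 4.64% of all genes. The median difference of these markers was -0.22. Their summed signal was 14.15 and 13.84 on the positive and 14.32 and 14.12 on the negative arrays, which overlap. Most of that sum was Fn1, at 13.89 and 13.71 in positive and 14.07 and 13.98 in negative cells. The mean of the log2 values of the list was 6.96 and 6.27 on the positive and 7.06 and 6.55 on the negative arrays. It was thus higher on the array numbered 1 in each population. Col3a1 measured 7.73 and 5.39 in positive and 7.86 and 5.90 in negative cells, while Cxcl12 was lower on the arrays numbered 1. The part of these cell types in the differences of the complex genes was not tested.

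The genes whose pattern was most like that of Tal1 and Lmo2 were found from the 4 array values centred on the mean of each gene, among the 10178 other genes averaging 6 log2 units or more. The nearest to Tal1 were Edil3, St8sia1, Creb3l2, Fam83d and Gask1b, at a root mean square distance of 0.03 to 0.05 log2 units. The nearest to Lmo2 were Ripor2, Nrg1, Exoc6, Depdc1a and Aurka, at 0.02 to 0.03. Lmo2 stood at rank 38 in the order of likeness to Tal1, Lyl1 at rank 170 and Cbfa2t3 at rank 373. Seen from Lmo2, Tal1 and Lyl1 stood at ranks 56 and 59 and Cbfa2t3 at rank 266, while Ldb1, Tcf12 and Tcf3 lay at ranks 4529, 7342 and 7644. The likeness rests on 4 arrays, which all genes share, and on 1 probe set per gene. With the mean over probe sets the differences of Edil3, Ripor2, Exoc6 and Aurka were 0.45, 0.38, 0.51 and 0.62, against 1.01, 0.95, 0.99 and 1.04 for the probe sets used.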

How the data were processed

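Per the submitters' processing notes, the authors ran RMA in R 2.8.0, and the values the authors deposited are log2 expression, 1 per probe set and array, with the base inferred from their range of 2.16 to 14.93. The labels' protocols name biotin labelling from the 3' end. Groups and array numbers came from the sample titles. Symbols came from the platform annotation, checked against GRCm38.p6 RefSeq genes by Entrez identifier, with 34741 probe sets matched and 0 symbols changed. Control probe sets and those with several symbols were left out. The test was limma 3.58.1 (lmFit, eBayes) under R 4.3.3, two-sided, with group as the only term, with Benjamini-Hochberg adjustment over 18193 genes and a threshold of 0.05. The fit was tested on simulated data with known changes in 50 genes of each size. It called 10% of those changed by 0.5 log2 units, 94% at 1 and 100% at 1.5 and 2, with 15 false calls in all. The simulated noise was independent between arrays, while same-numbered arrays here correlated, so these shares do not carry over to the data. Intervals of 95% came from the moderated fit. Figures were drawn with matplotlib 3.10.9.

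The members and the lists were chosen with earlier results of these data known. The named genes were the 8 members, the 4 genes with the smallest p of each list of partners, inhibitors, corepressors, targets and cardiac genes, the 5 nearest in pattern to Tal1 and to Lmo2, and Etv2 and Kdr. Listed genes without a match were not used here. Alternatives were each gene's probe sets averaged, each probe set tested alone, genes averaging under 6 left out, a mean-variance trend with robust estimation, a second quantile normalization, median centring of arrays, a block for the array number, and each array left out in turn.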

Additional observations from a re-analysis of the deposited data

How the results depend on the processing

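Tal1, Lyl1, Lmo2, Cbfa2t3 and Tcf3 kept their direction under all 11 alternatives, with Tal1 between 0.90 and 1.15 log2 units, Lyl1 between 0.81 and 0.97, Lmo2 between 0.92 and 1.04 and Cbfa2t3 between 0.69 and 1.07. Most of these alternatives could not have turned a direction. The filter, the variance trend, the block and testing each probe set alone leave the difference of the kept probe set unchanged. So does averaging for Tal1, Lyl1 and Lmo2, which have 1 probe set each. The arrays of these genes did not overlap, so leaving out 1 array could not change the sign. Limma adjusted p-values ran from 0.0476 to 0.424 for Tal1, 0.0511 to 0.401 for Lyl1, 0.0390 to 0.399 for Lmo2 and 0.0904 to 0.515 for Cbfa2t3. In the fit with a variance trend 2 members were called higher, among 81 genes called higher and 31 lower, and among genes with a mean of at least 6 the counts were 1 member, 66 genes and 13 genes; the other alternatives called 0. That filter tests fewer genes and leaves out Ldb2. The median difference of the members was 0.88 with that filter, 0.41 with the mean over probe sets, 0.053 over the 19 probe sets, of which Tcf12 has 5, and 0.50 to 0.58 when each array was left out.

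Ldb1 lay between -0.050 and 0.16 when each array was left out and turned to -0.050 without negative array 1 and to -0.0014 without positive array 2. Ldb2 lay between -0.23 and 0.47 and was -0.23 without negative array 2, where Tcf12, between -0.18 and 0.031, was 0.031. Id1 turned to -0.034 and -0.080 and Id3 to -0.18 and -0.30 without negative array 1 and without positive array 2; they lay between -0.08 and 0.16 for Id1 and between -0.30 and 0.38 for Id3 over all 4. With the mean over probe sets the change of Ldb2 minus Ldb1 was -0.028 and that of Tcf12 minus Tcf3 was -0.036. None of these was called in any setting, and the cause was not tested.

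The array number gives no stated pairing. Deviations of same-numbered arrays from their group means correlated at 0.54 over genes, and at 0.75 over the 10179 genes averaging 6 log2 units or more. The main fit has no term for the array number. With the array number as a replicate block limma called 0 genes, with an unchanged median of 0.50 for the members and an adjusted p of 0.0856 for Tal1, Lyl1 and Lmo2 and 0.0904 for Cbfa2t3.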
